A study of Mus musculus with 12 samples.

Results

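Ubiquitinated histone H2A was examined at 8 mouse genes of the DNA replication machinery: Mcm2, Mcm3, Mcm4, Mcm5, Mcm6, Mcm7, Mcm10 and Pcna. They were chosen by name, with no measured value in the rule, from the 21738 protein-coding genes of the annotation. A gene counted as listed in a library where a peak of that library overlapped its promoter, meaning 2 kb before to 2 kb after its canonical transcription start site, by 1 base or more. Peaks elsewhere in the gene were kept apart as body peaks.

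Mcm2, Mcm3, Mcm4, Mcm5, Mcm6 and Mcm7 encode the subunits of the ring-shaped helicase that is loaded at replication origins and unwinds DNA ahead of the fork. Mcm10 is not a subunit of that ring: its product is needed to activate the loaded helicase. Pcna encodes the sliding clamp that holds DNA polymerases on the template. The MCM genes and Pcna are known targets of E2F transcription factors and are transcribed as cells enter S phase, which makes them abundant in dividing haematopoietic progenitors. H2AK119ub, a ubiquitinated form of histone H2A, is laid down by Polycomb repressive complex 1 and removed by the deubiquitinase BAP1, for which ASXL1 is the cofactor.

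All libraries were made from c-Kit+ cells of mouse bone marrow, a haematopoietic stem and progenitor fraction whose genotype label is mock, stimulated overnight and then infected with retroviruses. Every group, the vector controls included, carried a retrovirus for BAP1, so no group shows cells with endogenous BAP1 alone. In the 1-590 set the second virus was an empty vector, ASXL1 residues 1 to 590 (1-590), the condensation-impaired form 10RA or the condensation-defective form 25RA. In the 1-1067 set it was a separate empty vector, residues 1 to 1067 (1-1067), or the charge-neutralized forms 34DN and 36EQ. CUT&RUN, in which an antibody-tethered nuclease releases the marked chromatin, gave H2AK119ub in all 8 of these conditions. ChIP-seq of BAP1 and of ASXL1 was done in cells with 1-590 and with 10RA, 4 libraries in all. Per the labels' protocols that ChIP used an antibody to the HA tag of the introduced protein, whereas the sample descriptions name antibodies to BAP1 or ASXL1. Strain and age are not given in the sources used here. The deposited lists of 25RA, 34DN and 36EQ name their peaks by codes that differ from the titles of the samples, and the groups here follow the titles.

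Each condition had 1 library, so there is no replicate check on any difference, no test was made, and intervals cover counting error only. The H2AK119ub lists held 20124 to 33863 peaks in the 1-590 set and 5307 to 6310 in the 1-1067 set. Of these peaks, 86.0% to 96.0% had q of at most 0.05 in the 1-590 set, against 22.8% to 32.7% in the 1-1067 set. Depth, read as the lowest background of any peak in the list, ran from 0.908 (vector) to 2.06 (1-590) fragments per base in the 1-590 set and from 2.17 (1-1067) to 2.92 (vector) in the 1-1067 set. The sets were labelled as separate batches, and no difference in level was drawn between them. Below, a level is the number of fragments over a peak's summit divided by that background of the same library, with an exact Poisson 95% interval. Each library's own summit was used, so the levels of a gene need not come from the same base. The level at a gene without a peak is not known, and "not listed" does not mean that the mark was absent. More cells with the mark and more of it per cell cannot be told apart in these bulk libraries. Promoter peaks of H2AK119ub were present at 4, 6, 3 and 4 of 7 stem and progenitor genes in the vector, 1-590, 10RA and 25RA libraries, and at 0, 2, 0 and 0 in the vector, 1-1067, 34DN and 36EQ libraries. They were present at 1 of 4 stromal and endothelial genes in each library except the vector of the 1-1067 set, which had 0. Of 3 erythroid genes 1 was listed in vector, 1-590, 25RA and 36EQ, of 3 neutrophil genes 1 in 1-590 and 25RA, and of 3 lymphoid genes 2 in 25RA, all other counts being 0. These lists do not measure expression, so the identity of the cells could not be checked from them.

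The stretches just before the start sites of 5 members are shown because they carry, or lack, the words that mark E2F-regulated replication promoters and lie inside or beside the peaks described below. They were read from GRCm39 on the strand of the gene, 5′ to 3′, and stop before any annotated UTR. Capitals mark E2F-like words (TTTGGCGC, TTTCGCGC or TTTCCCGC) and CCAAT, each on either strand, so that CCAAT on the other strand reads ATTGG. The regions are chr16:15455265-15455514 (minus strand, Mcm4), chr8:75835890-75836139 (plus strand, Mcm5), chr1:128287517-128287702 (minus strand, Mcm6), chr2:5017630-5017879 (minus strand, Mcm10) and chr2:132095235-132095484 (minus strand, Pcna).
Mcm4: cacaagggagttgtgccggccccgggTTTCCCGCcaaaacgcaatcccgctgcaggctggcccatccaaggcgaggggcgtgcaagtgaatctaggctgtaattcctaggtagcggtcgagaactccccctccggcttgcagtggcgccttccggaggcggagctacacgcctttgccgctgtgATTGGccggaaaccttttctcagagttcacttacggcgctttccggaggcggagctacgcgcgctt
Mcm5: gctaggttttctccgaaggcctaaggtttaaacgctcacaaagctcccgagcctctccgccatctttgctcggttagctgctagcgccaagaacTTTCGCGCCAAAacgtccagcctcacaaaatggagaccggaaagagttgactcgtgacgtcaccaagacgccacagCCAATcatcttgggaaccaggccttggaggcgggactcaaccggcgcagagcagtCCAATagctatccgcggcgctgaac
Mcm6: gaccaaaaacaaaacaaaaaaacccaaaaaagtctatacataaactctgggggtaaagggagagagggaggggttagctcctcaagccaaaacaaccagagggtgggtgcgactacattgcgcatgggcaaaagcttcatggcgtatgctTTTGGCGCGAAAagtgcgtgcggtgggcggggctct
Mcm10: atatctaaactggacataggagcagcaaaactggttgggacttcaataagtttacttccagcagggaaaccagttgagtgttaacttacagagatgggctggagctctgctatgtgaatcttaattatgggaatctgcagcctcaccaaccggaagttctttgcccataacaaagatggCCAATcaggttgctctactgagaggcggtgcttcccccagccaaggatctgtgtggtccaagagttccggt
Pcna: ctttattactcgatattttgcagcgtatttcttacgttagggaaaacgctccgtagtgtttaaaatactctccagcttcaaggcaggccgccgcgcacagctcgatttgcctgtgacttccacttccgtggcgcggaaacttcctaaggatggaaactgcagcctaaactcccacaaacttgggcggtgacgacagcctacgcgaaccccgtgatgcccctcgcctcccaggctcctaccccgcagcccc

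The E2F-like words were searched on both strands from 250 bases before to 50 bases after the canonical start of all 21738 genes, with the start site counted as 0. At least 1 of them was found in 4 of the 8 members, Mcm3, Mcm4, Mcm5 and Mcm6, and in 2.33% of all promoters. TTTGGCGC was in Mcm3, Mcm5 and Mcm6 and in 0.676% of all promoters, TTTCGCGC in Mcm5 and Mcm6 and in 0.354%, and TTTCCCGC in Mcm3 and Mcm4 and in 1.37%. In Mcm5 the word TTTCGCGC and the reverse complement of TTTGGCGC overlap in the run TTTCGCGCCAAA at positions -156 to -145. Mcm6 holds the reverse complement of that run, TTTGGCGCGAAA, at -100 to -89, and a further TTTGGCGC at -37 to -30, past the end of the stretch shown. The word of Mcm4 lies at -224 to -217. CCAAT was in 6 members, all but Mcm7 and Pcna, and in 39.9% of all promoters. TTTGAA, the word of the cell cycle homology region, was in Mcm2 alone among the members and in 17.1% of all promoters. A match is a description of these windows and not a binding site. Around any annotated start rather than the canonical one, E2F-like words were near 9 of 16 starts of Mcm2, 8 of 16 of Mcm7 and 2 of 5 of Pcna, but 0 of 18 of Mcm10. CpG content also divided the members: the observed over expected ratio was 0.961 in Mcm4, 1.03 in Mcm5, 0.910 in Mcm6 and 1.07 in Pcna, each above at least 88.1% of promoters. Mcm3 (0.452), Mcm7 (0.360) and Mcm10 (0.446) lay below the median of 0.517, and Mcm2 (0.652) above it.

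Promoter peaks of H2AK119ub were listed for 36 of the 64 pairs of a member and a library. Mcm4 was listed in 7 of the 8 libraries, Mcm7, Mcm10 and Pcna in 6, Mcm6 in 5, Mcm3 in 3, Mcm2 in 2 and Mcm5 in 1. Of all genes, 1.57% were listed in 7 libraries, 3.29% in 6, 7.27% in 5, 12.7% in 3, 10.9% in 2 and 11.3% in 1. No member was listed in all 8 or in none, whereas 0.902% of all genes were listed in all 8 and 34.2% in none. By role, the helicase ring was uneven, with Mcm4, Mcm6 and Mcm7 listed in both sets and Mcm2, Mcm3 and Mcm5 in the 1-590 set alone. Mcm10 was the member listed in all 4 libraries of the 1-1067 set.

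**Figure D1:**
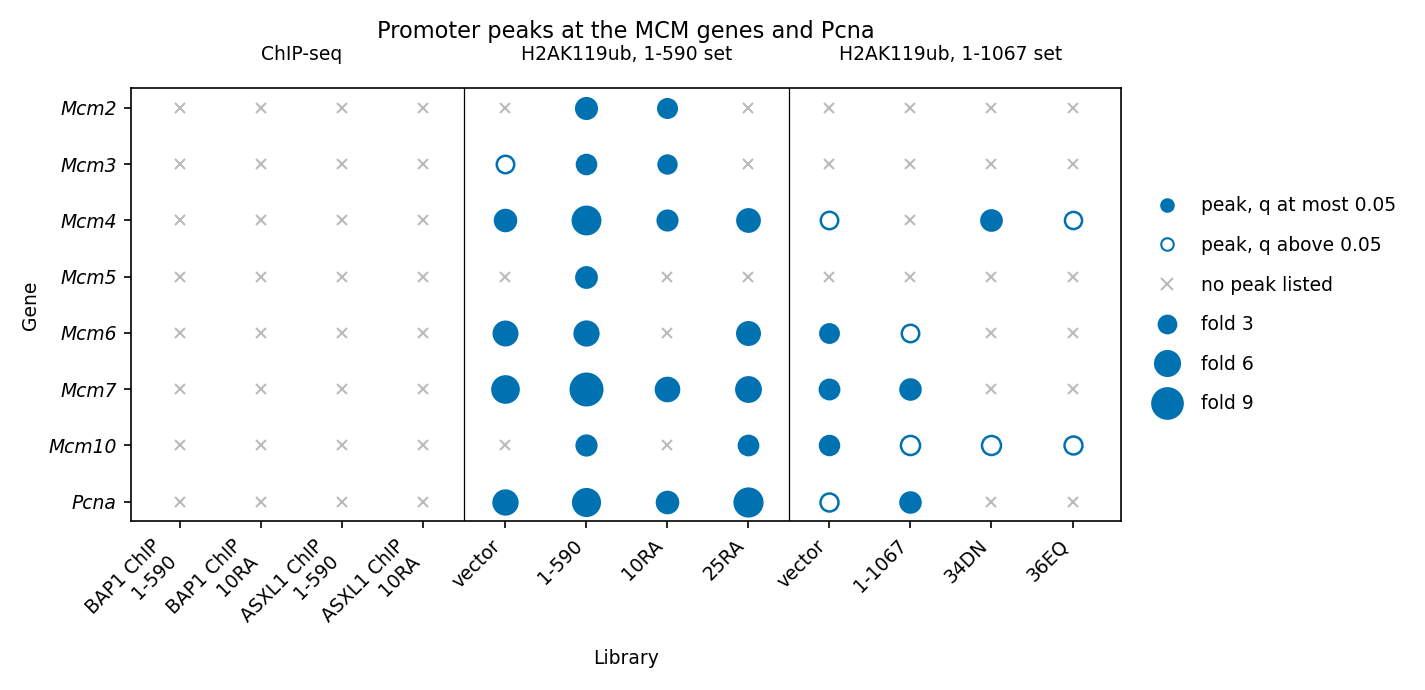
Promoter peaks of the 8 members (rows) in the 12 libraries (columns), the 4 of ChIP-seq first and then the 8 of H2AK119ub by set. Each dot is a listed promoter peak with its area following the deposited fold. Filled dots have q of at most 0.05, open dots have q above 0.05, and a cross marks no listed peak. The H2AK119ub column of 1-590 is the one with all 8 members.

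Cells with 1-590 had a promoter peak at all 8 members, against 5 in their vector control. The percentage of all genes listed was 55.2% in 1-590 and 40.5% in vector. Mcm2, Mcm5 and Mcm10 were listed in 1-590 and not in vector, a pattern of 17.8% of all genes. No member was listed in vector and not in 1-590, a pattern of 3.03% of genes. A count of 3 among 8 genes rests on few genes and was not tested against these percentages, here or in the comparisons that follow.

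At Mcm2 (chromosome 6, 88860452 to 88875762, minus strand) the 1-590 peak at 88875419 to 88875860 had 28 fragments at its summit, 60 bases after the start in the 5′ UTR, a level of 13.6 (9.04 to 19.65) and q of 5.01e-08. Scaled down to the depth of the vector library that peak would hold 12.3 fragments and a -log10 p of 5.51, past the 3 that the lists required. At that depth 10761 of the 12003 genes listed in 1-590 would still be listed, so passing does not set a member apart. What depth adds to the differences in listing was not tested. At Mcm5 (chromosome 8, 75836140 to 75856231, plus strand) the peak at 75835814 to 75836360 had 22 fragments, a level of 10.7 (6.70 to 16.2) and q of 3.11e-06, with its summit at position -162 from the start. That summit lies 6 bases before the run TTTCGCGCCAAA printed above. The peak of Mcm10 (chromosome 2, 4994516 to 5017629, minus strand) was the weakest of these, with 12 fragments, a level of 5.83 (3.01 to 10.2) and q of 0.00153. At the depth of vector it would hold 5.29 fragments with a -log10 p of 3.24, close to the limit of the list.

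The 5 members listed in both libraries had levels with overlapping intervals in vector and 1-590. Mcm7 (chromosome 5, 138162844 to 138170684, minus strand) had the highest level of the members in both, 20.9 (12.6 to 32.7) in vector and 27.7 (20.96 to 35.9) in 1-590. Mcm4 (chromosome 16, 15440211 to 15455264, minus strand) stood at 13.2 (6.83 to 23.1) and 18.0 (12.65 to 24.8). Pcna (chromosome 2, 132091082 to 132095234, minus strand) stood at 14.3 (7.63 to 24.5) and 11.65 (7.47 to 17.3). All 3 pairs of intervals overlap. Mcm6 (chromosome 1, 128259311 to 128287516, minus strand) had levels of 15.4 (8.43 to 25.9) and 11.65 (7.47 to 17.3). Mcm3 (chromosome 1, 20870791 to 20890536, minus strand) was the lowest, at 6.61 (2.43 to 14.4) from 6 fragments in vector, where its q was 0.147, and 6.80 (3.72 to 11.4) in 1-590. On the log2 scale the level in 1-590 minus that in vector ran from -0.40 at Mcm6 to 0.44 at Mcm4 with a median of 0.04. The median over the 8143 genes listed in both was -0.21 (quartiles -0.48 and 0.07).

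**Figure D2:**
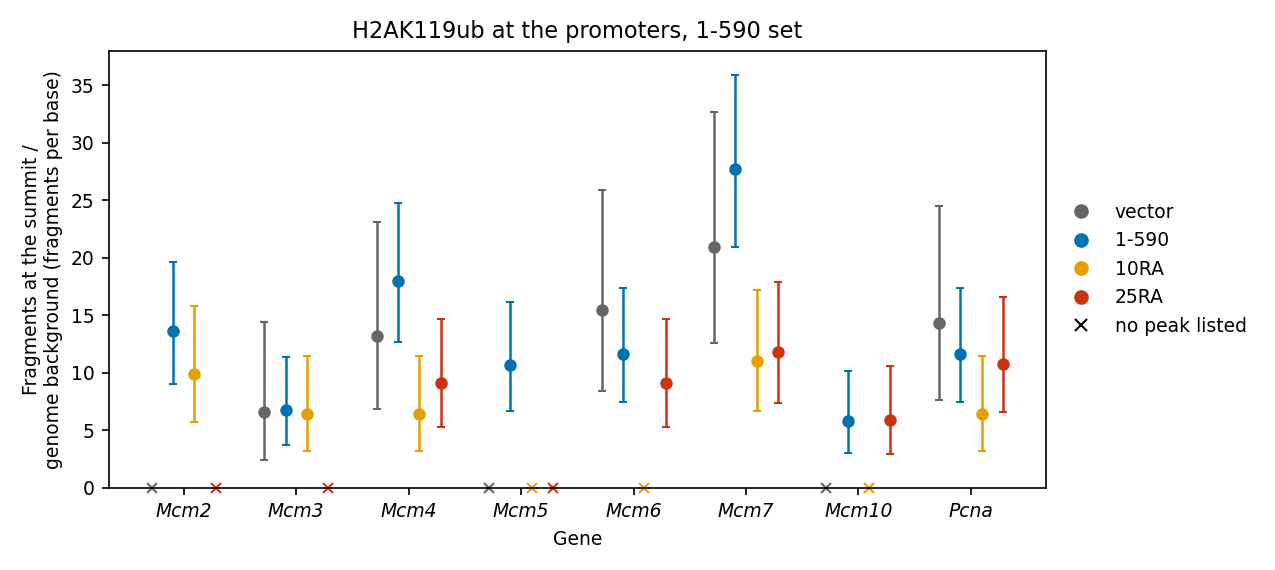
Level (summit fragments over genome background, no unit) of each member's strongest promoter peak in the 4 H2AK119ub libraries of the 1-590 set. Points are single libraries, bars are exact Poisson 95% intervals for counting error, crosses at the foot mark no listed peak and not a level of zero, and the 1-590 values of Mcm4 and Mcm7 are the highest of their genes at 18.0 and 27.7.

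With the condensation-impaired form 10RA, 5 members were listed, namely Mcm2, Mcm3, Mcm4, Mcm7 and Pcna, beside 41.4% of all genes. Mcm5, Mcm6 and Mcm10 were listed in 1-590 and not in 10RA, a pattern of 18.4% of genes, and no member showed the opposite pattern, which 4.53% of genes did. Mcm6 had the most fragments of the 3 in 1-590. Its 1-590 peak of 24 fragments would hold 20.1 at the depth of 10RA, with a -log10 p of 10.9. Scaled in the same way Mcm5 would reach 7.52 and Mcm10 4.93. The scaling factor was 0.836, and what depth adds to this difference was not tested.

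Where both libraries had a peak, the level in 10RA was below that in 1-590 at all 5 members. At Mcm7 it was 11.0 (6.65 to 17.2) from 19 fragments, against 27.7 (20.96 to 35.9) from 57 fragments, a log2 difference of -1.33, and the intervals do not overlap. At Mcm4 it was 6.39 (3.19 to 11.4) against 18.0 (12.65 to 24.8), a log2 difference of -1.49, again without overlap of the intervals. Both of these genes have a neighbour on the other strand that starts close by, as given further on. At Pcna the level was 6.39 (3.19 to 11.4) against 11.65 (7.47 to 17.3), at Mcm2 9.88 (5.75 to 15.8) against 13.6 (9.04 to 19.65), and at Mcm3 6.39 (3.19 to 11.4) against 6.80 (3.72 to 11.4), all with overlapping intervals. The Mcm3 value of 10RA comes from another place, a peak with its summit at position -1720, inside the processed pseudogene Gm20587. At Pcna and Mcm4 the peaks of 10RA and 1-590 overlap, but their summits differ. They lay at 739 in 10RA and 26 in 1-590 for Pcna, and at -82 and -279 for Mcm4. The median log2 difference was -0.87 over the 5 members and -0.43 (quartiles -0.74 and -0.10) over the 8006 genes listed in both libraries.

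With the condensation-defective form 25RA, 5 members were again listed, but they were Mcm4, Mcm6, Mcm7, Mcm10 and Pcna, beside 47.8% of all genes. Mcm2, Mcm3 and Mcm5 were listed in 1-590 and not in 25RA, as were 12.9% of genes. No member showed the opposite pattern, which 5.53% of genes did. The Mcm2 peak of 1-590 would hold 25.3 fragments at the depth of 25RA, with a -log10 p of 9.79, and that of Mcm5 19.9 fragments with 8.003. This scaling had a factor of 0.903, and what depth adds was again not tested. At Mcm7 the level was 11.8 (7.42 to 17.9) and the log2 difference from 1-590 was -1.23, without overlap of the intervals. Mcm4 at 9.14 (5.33 to 14.6) differed from 1-590 by -0.97 on the log2 scale, with overlapping intervals. Mcm6 at 9.14 (5.33 to 14.6), Pcna at 10.8 (6.57 to 16.6) and Mcm10 at 5.92 (2.95 to 10.6) differed from 1-590 by log2 values of -0.35, -0.12 and 0.02. The Mcm10 peak of 25RA has its summit 1045 bases after the start, in intron 1, and does not overlap that of 1-590. The median over the 5 members was -0.35, beside -0.34 (quartiles -0.63 and -0.05) over the 9198 genes listed in both. The comparisons of vector, 10RA and 25RA with 1-590 share the 1-590 library, which had the most depth of the set.

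In the 1-1067 set a smaller percentage of all genes was listed in each library than in the 1-590 set. The vector library listed 5 members, Mcm4, Mcm6, Mcm7, Mcm10 and Pcna, beside 7.44% of all genes, and 1-1067 listed 4 of these, all but Mcm4, beside 9.21%. Mcm4 was thus in the vector list alone, a pattern of 4.74% of genes, and no member showed the opposite pattern, which 6.51% of genes did. The Mcm4 peak of vector had 15 fragments, a level of 5.14 (2.88 to 8.48) and q of 0.125, so it did not pass q of 0.05. The 4 members in both lists had levels with overlapping intervals: Mcm6 6.51 (3.92 to 10.2) in vector and 5.54 (2.86 to 9.67) in 1-1067, Mcm7 6.17 (3.66 to 9.75) and 6.46 (3.53 to 10.8). Mcm10 and Pcna each stood at 5.14 (2.88 to 8.48) in vector and 5.54 (2.86 to 9.67) in 1-1067. For Pcna these values come from different places, 132094538 to 132094866 in vector and 132094899 to 132095168 in 1-1067, which do not overlap. The median log2 difference was 0.09 over these 4 and 0.25 over the 587 genes listed in both.

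Both charge-neutralized forms listed Mcm4 and Mcm10 and no other member, beside 6.96% of all genes in 34DN and 8.52% in 36EQ. Their comparisons share the 1-1067 library. Mcm6, Mcm7 and Pcna were listed in 1-1067 and not in 34DN, as were 6.53% of genes, and Mcm4 was in 34DN alone, as were 4.27%. The same 3 members were listed in 1-1067 and not in 36EQ, as were 5.96% of genes, and Mcm4 was in 36EQ alone, as were 5.27%. Both of these libraries had more depth than 1-1067, with backgrounds of 2.59 and 2.85 fragments per base against 2.17. The 14 fragments of Mcm7 in 1-1067 would become 16.7 at the depth of 34DN and 18.4 at that of 36EQ, with -log10 p of 7.32 and 7.91. The 12 fragments of Pcna would become 14.3 and 15.75, with 6.75 and 7.27. A listed peak can only gain -log10 p when scaled up to more depth. That these values pass the limit was therefore fixed in advance, and nothing is concluded from it.

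The strongest member peak of these forms was that of Mcm4 in 34DN, with 18 fragments, a level of 6.96 (4.13 to 11.0) and q of 0.00130. In 36EQ the Mcm4 peak had a level of 4.22 (2.18 to 7.37) and q of 0.218. Mcm10 stood at 4.64 (2.40 to 8.11) in 34DN and 4.22 (2.18 to 7.37) in 36EQ, with q of 0.0675 and 0.133. Of the members listed in this set, those with q of at most 0.05 were Mcm6, Mcm7 and Mcm10 in vector, Mcm7 and Pcna in 1-1067, Mcm4 in 34DN and none in 36EQ. Exact copies of 32 bases or more elsewhere in the genome covered 12.7% to 26.4% of the bases of the 4 Mcm10 peaks of this set. They covered none of the Mcm10 peaks of 1-590 and 25RA. Such copies also covered 6.40% of the Mcm5 promoter peak of 1-590 and 15.1% of a peak of 36EQ inside Mcm4, and none of the other member peaks. What these copies add to the values was not tested.

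**Figure D3:**
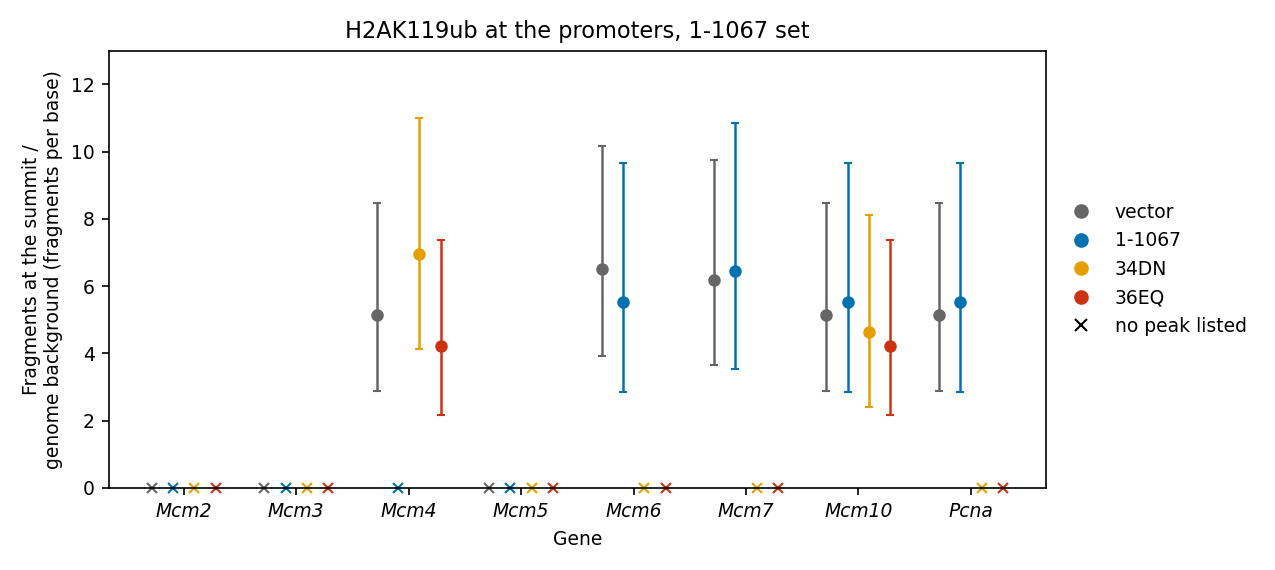
Level (summit fragments over genome background, no unit) of each member's promoter peak in the 4 H2AK119ub libraries of the 1-1067 set, drawn as for the other set with exact Poisson 95% intervals and crosses for no listed peak. The listed levels run from 4.22 to 6.96 and all their intervals overlap within a gene.

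Within the promoters the peaks took different places. In Mcm7 the summits of all 6 libraries with a peak fell in intron 1 of the canonical transcript, 1223 to 1281 bases after its start, and spread over 58 bases (138169403 to 138169461 on chromosome 5). This start lies upstream of most annotated Mcm7 starts, and other Mcm7 transcripts have UTR exons in that stretch. Summits more than 1 kb from the start made up 11.9% to 22.6% of listed genes across the 8 libraries. In 25RA a further peak lay 378 bases after the start, and in 1-590 and 10RA 1 peak spanned 1212 and 868 bases. With promoters of 1 kb on each side Mcm7 was no longer listed in either vector library or in 1-1067.

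Mcm4 peaks of 7 libraries share the stretch 15455373 to 15455645 just before the start, with summits from position -340 to 35. The E2F-like word printed in the Mcm4 sequence lies inside that stretch. Mcm6 summits lay 54 to 184 bases after the start in the 1-590 set and at positions -224 and -310 in vector and 1-1067 of the other set. Pcna summits lay 26 to 739 bases after the start, in exon 1 or intron 1, in all 6 libraries with a peak. The Mcm10 peaks of 1-590 and of the 4 libraries of the 1-1067 set share 5017388 to 5017480, after the start.

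**Figure D4:**
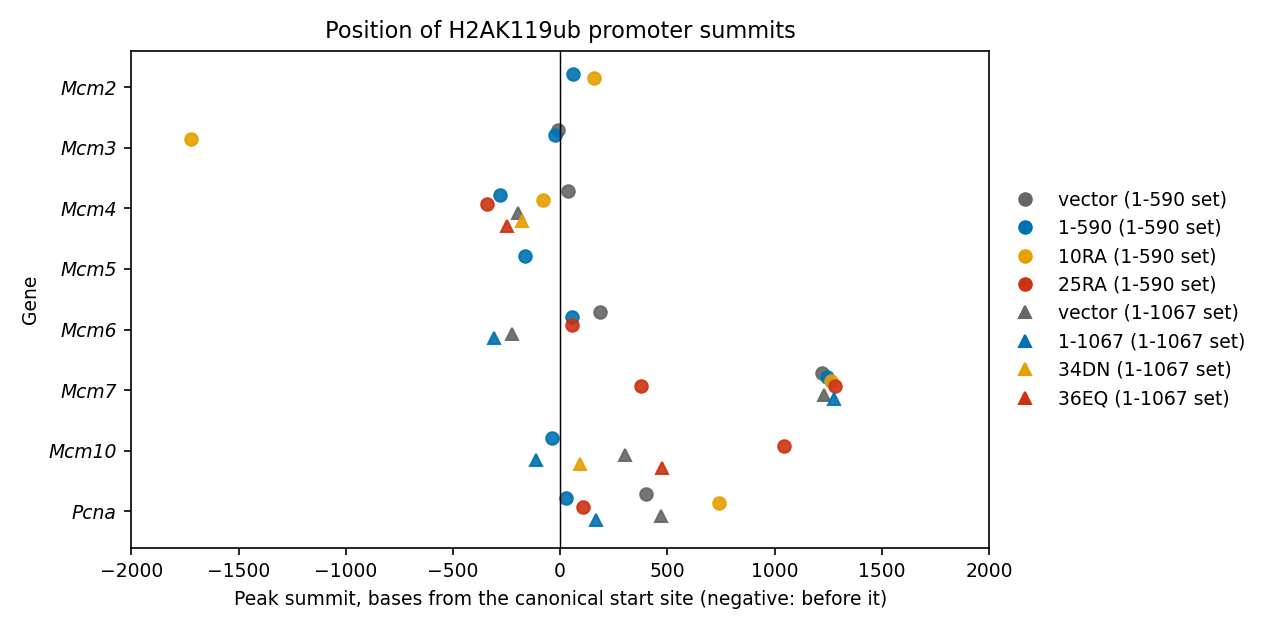
Distance in bases of each promoter peak summit from the canonical start site, with positive values into the gene, for the 8 members and 8 H2AK119ub libraries. Points are single peaks coloured by library, and the Mcm7 summits at 1223 to 1281 bases lie within 58 bases of each other.

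Some of these promoters are not the member's own alone. The start of Prkdc, which encodes the catalytic subunit of DNA-dependent protein kinase, lies 489 bases from that of Mcm4 and points the other way. Ap4m1, an adaptor complex subunit gene, starts 447 bases from Mcm7 and also points the other way. The Mcm7 summits lay 776 to 834 bases before the start of Ap4m1. Pcna has the start of the long noncoding RNA AV099323 568 bases away, and Mcm3 that of the pseudogene Gm20587 1019 bases away. The stretch shared by the Mcm4 peaks lies between the starts of Mcm4 and Prkdc, whereas the starts of Ap4m1 and AV099323 lie inside Mcm7 and Pcna. A peak in the promoter windows of both genes of a pair cannot be assigned to 1 of them.

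Body peaks were few. In the 1-590 set they were found in Mcm3 and Mcm5 in vector (21.1% of all genes had such a peak), in Mcm5 in 1-590 (27.4%), in Mcm3 in 10RA (27.3%) and in Mcm3 in 25RA (30.7%). In the 1-1067 set no member had one in vector (8.89%) or 1-1067 (9.62%), Mcm4 had one in 34DN (8.19%) and Mcm4 and Mcm5 had one each in 36EQ (9.46%). Those of Mcm5 in vector, 1-590 and 36EQ overlap at 75846335 to 75846553 in intron 9. Intron 9 thus had a peak in vector cells, where the canonical Mcm5 promoter was not listed. Counted around any annotated start, Mcm5 was listed in vector and in 36EQ, so these peaks lie within 2 kb of another annotated Mcm5 start. The level there was 13.2 (6.83 to 23.1) in vector and 8.26 (4.81 to 13.2) in 1-590. Those of Mcm4 in 34DN and 36EQ overlap at 15444459 to 15444562 in intron 13, with q of 0.0554 and 0.287. The Mcm3 peaks lay at unlike places, intron 16 in vector, introns 2 and 15 in 10RA and coding exon 9 in 25RA.

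No promoter of the 8 members held a ChIP peak of BAP1 or of ASXL1. Few promoters were listed in these libraries: 0.363% of genes for BAP1 with 1-590, 0.552% for BAP1 with 10RA, 1.07% for ASXL1 with 1-590 and 0.455% for ASXL1 with 10RA. A count of 0 of 8 is thus near the background of such lists. A peak needed 12, 14, 13 and 10 fragments at the genome background in these libraries, so weaker binding was not detectable at this depth. The single ChIP peak on a member was one of ASXL1 with 10RA in the 3′ UTR of Mcm5, at 75855667 to 75855866 in exon 17, with 11 fragments and q of 0.382. Body peaks of that library lay in 6.25% of genes. Of 67 other replication genes, 1 was listed in a ChIP library, Orc2 in BAP1 with 10RA.

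The share of the 67 other replication genes that was listed lay above that of all genes in each of the 8 H2AK119ub libraries. In the 1-590 set the vector and 10RA libraries each listed 42 (62.7%), while 61 were listed with 1-590 (91.0%) and 50 with 25RA (74.6%). In the 1-1067 set the vector library listed 11 (16.4%), while 14 were listed with 1-1067 (20.9%), 10 with 34DN (14.9%) and 9 with 36EQ (13.4%). The contrast of 1-590 with vector held 19 genes listed in 1-590 alone and 0 in vector alone, patterns of 17.8% and 3.03% of all genes. That of 10RA held 20 in 1-590 alone and 1 in 10RA alone, beside 18.4% and 4.53% of all genes. That of 25RA held 12 and 1, beside 12.9% and 5.53%. The counts were not tested against these shares. These comparisons share the 1-590 library, as those of the members do.

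**Figure D5:**
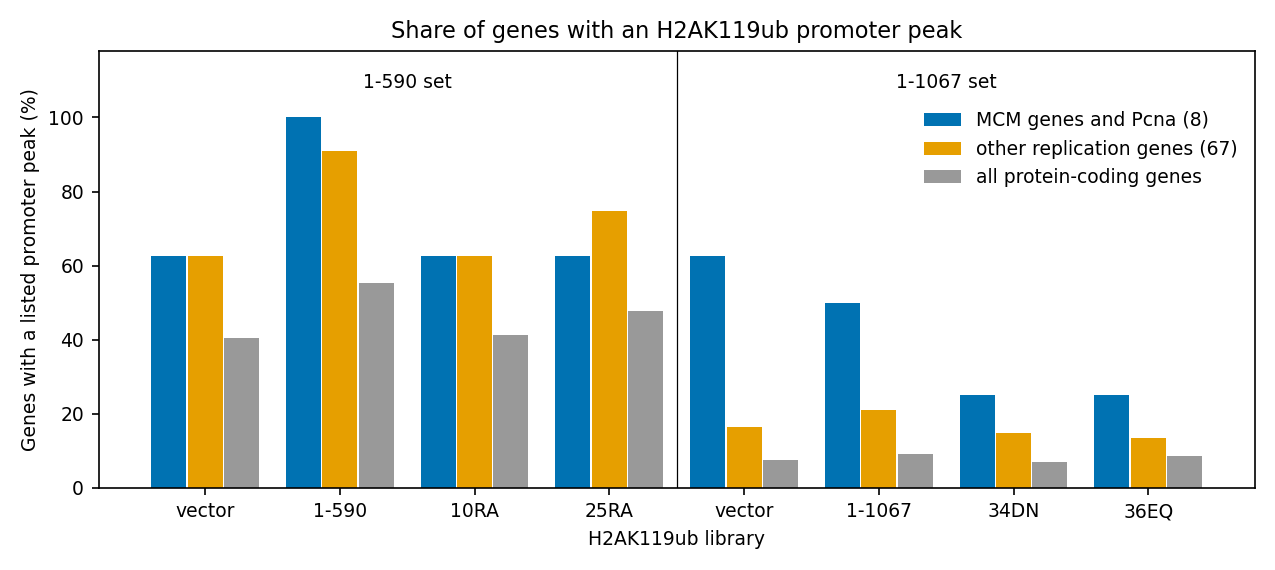
Percentage of genes with a listed promoter peak in each of the 8 H2AK119ub libraries for the 8 members, the 67 other replication genes and all 21738 protein-coding genes. Bars start at 0 and stand for single libraries without error, and the other replication genes run from 13.4% in 36EQ to 91.0% in 1-590.

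By role, the 9 genes of origin recognition and licensing were all listed in vector and 1-590, 7 in 10RA and 8 in 25RA. In vector, 1-1067, 34DN and 36EQ of the other set 4, 3, 2 and 1 were listed. Of the 16 origin firing and fork factors 15 were listed with 1-590, 12 with 25RA, 10 with 10RA and 8 with vector. The counts were 1, 4, 4 and 1 in the other set. The products of the 9 genes grouped as clamp loaders place Pcna on DNA, except that of Atad5, which unloads it. Of these genes 8, 9, 6 and 6 were listed in the 1-590 set and 2, 1, 1 and 1 in the other. Of 13 polymerase genes 7, 10, 7 and 9 were listed, and 3, 3, 1 and 2. Of 10 genes of single-strand binding, lagging strand and chromatin assembly 4, 9, 4 and 6 were listed, and 1, 2, 0 and 3. Of 6 genes of nucleotide supply and topoisomerases 5, 6, 6 and 6 were listed, and 0, 1, 2 and 1. Of the 4 other MCM genes, Mcm8, Mcm9, Mcmbp and Mcmdc2, 1, 3, 2 and 3 were listed in the 1-590 set and 0 in each library of the other. Over all genes the share listed was 40.5%, 55.2%, 41.4% and 47.8% in vector, 1-590, 10RA and 25RA. In vector, 1-1067, 34DN and 36EQ it was 7.44%, 9.21%, 6.96% and 8.52%.

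Among the 67 other replication genes, those listed in 1-590 and not in vector are named by fold. The highest deposited folds were at Clspn (6.90), which encodes the checkpoint mediator claspin, Rrm1 (6.13), a ribonucleotide reductase subunit, Cdc7 (5.56), the kinase that phosphorylates the MCM ring, Gins3 (5.47), and Fen1 (5.44), the flap endonuclease. Among those of the 67 listed in 1-590 and not in 10RA they were at Rfc2 (5.69), Cdc7 (5.56), Cdc6 (5.49), Pold3 (5.38) and Pold4 (5.25). Among those of the 67 listed in 1-590 and not in 25RA they were at Rfc2, Cdc7, Pold3, Pclaf (4.99) and Atad5 (4.91). Cdc6 loads the ring on origins, Rfc2 is a clamp loader subunit and Atad5 unloads Pcna. Of the 67, the gene listed in 10RA or 25RA and not in 1-590 was Prim2, a primase subunit, with folds of 3.41 and 3.62. Orc6, Gins2 and Chtf18 were listed in all 8 libraries, which no member was, and Mcmdc2, Timeless, Pola2, Prim1 and Rnaseh2a in none.

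The genes whose promoter profiles over the 8 H2AK119ub libraries were most like the mean profile of the members were sought among 11848 genes listed in 2 or more of them. For this a library without a listed peak was entered as 0, although the level there is not known, so the measure follows the listing pattern and the gap between the sets as well as the levels. The 5 with the highest Pearson correlation were Ap4m1 (0.99), which shares the Mcm7 peak, Atm and Npat (0.99 each), which share 1 promoter peak, Ddx50 (0.99) and Ccdc115 (0.99). Like Mcm7, all of these were listed in the 4 libraries of the 1-590 set with their highest level in 1-590, 27.7 at Ap4m1 and 23.8 at Ccdc115. The members themselves were unlike in their correlation with this mean, of which each is a part. It was 0.99 at Mcm7, 0.89 at Mcm4, 0.85 at Pcna, 0.78 at Mcm3 and Mcm6, 0.67 at Mcm2 and -0.09 at Mcm10. Mcm5, listed in 1 library, was not scored. The mean thus follows Mcm7 most closely and does not stand for every member. These values describe 8 libraries that share batches and depth, and carry no test.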

How the data were processed

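The data were 12 peak lists, 1 per library and condition: 8 of H2AK119ub (CUT&RUN) and 4 of BAP1 or ASXL1 (ChIP-seq). The genome mm39 and the tools MACS3 3.0.3, Bowtie2 2.5.4, fastp 0.24.0, Picard and SAMtools are named, per the submitters' processing notes. As deposited, each list gives per summit a fold (a ratio of pileup to local background), a -log10 p, a -log10 q and a score, all made by the authors' peak caller within each library. Use of a control library is not given in the sources used here. E. coli spike-in normalization of the CUT&RUN is stated, per the labels. Whether fragments were subsampled to that scale before peak calling is not known; if they were, the fragment numbers, depths and intervals here are those after subsampling. The lists reached p of 0.001.

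From fold and p of each peak the fragment number at the summit and the local background were recovered, with whole fragments in 100% of peaks of each list (tolerance 0.002 in -log10 p). The lowest background of a list served as its depth. For scaled depth, fragments and background were multiplied by the ratio of depths and the Poisson p recomputed. Intervals are exact Poisson, 95%. Genes, starts and promoters of 2 kb each side came from GENCODE vM39 on GRCm39, the same build. Python 3.11.15, numpy 2.4.6, scipy 1.17.1, pandas 2.3.3 and matplotlib 3.10.9 were used, and the recovery was tested on simulated data.

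The members, the list of 67 other replication genes, the marker lists and the words searched were chosen with earlier results of these data known. Named genes were the 8 members, up to 5 other replication genes per comparison and direction with the largest fold, the 5 genes most like the members' mean profile, and neighbours that share a promoter. Alternatives were q of at most 0.05, -log10 p of at least 5, promoters of 1 kb and 5 kb, lists of equal length, scaled depth, any annotated start, and the summit (not any base) inside the promoter.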

Additional observations from a re-analysis of the deposited data

Results flagged for a closer look

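The number of members with a promoter peak of H2AK119ub moved in opposite directions in the sets when the truncated protein was set beside its own vector. With 1-590 the count was 8 against 5, a difference of 3 (Mcm2, Mcm5 and Mcm10). With 1-1067 it was 4 against 5, a difference of -1, which rests on Mcm4 alone. The share of all genes listed was higher than in vector in both sets (55.2% against 40.5% with 1-590, 9.21% against 7.44% with 1-1067), as was the number of the 67 other replication genes (61 against 42, and 14 against 11). Each set has its own vector library and batch, with 1 library per condition, and this difference between the sets was not tested. Set, batch and length of the protein cannot be told apart.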

How the results depend on the processing

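No paired analysis was possible because each condition has 1 library and no result comes from a test. The 8 differences in the number of members with a promoter peak were recomputed under 8 alternatives: 57 values stayed within 1.5 times the number reported, 7 moved and 0 reversed. The values that stayed include those of the BAP1 and ASXL1 ChIP, where 0 members were set against 0. Settings that only shorten lists or promoters could not change these. The differences of 1-590, 10RA and 25RA in the 1-590 set were among the values that did not move by this measure. Lists scaled to the lowest depth held 5, 8, 4 and 5 members in vector, 1-590, 10RA and 25RA. The same scaled lists held 40.5%, 49.5%, 36.55% and 41.4% of all genes. The difference of 1-590 from vector still ranged from 2 to 4. It was 2 with promoters of 5 kb, where vector also listed Mcm2, and around any annotated start, where vector also listed Mcm5. That of 25RA from 1-590 was -2 with promoters of 5 kb, where 25RA also listed Mcm2. The difference of 34DN from 1-1067, reported as -2, was -1 with q of at most 0.05, with -log10 p of at least 5, and with promoters of 1 kb and of 5 kb. That of 36EQ from 1-1067, also -2, was -1 with promoters of 1 kb and around any annotated start. That of 1-1067 from its vector was -1 in each setting, but not through the same gene: with q of at most 0.05 Mcm4 was in neither list, Mcm6 and Mcm10 were in vector alone and Pcna in 1-1067 alone, and with -log10 p of at least 5 it was Mcm6. With promoters of 5 kb ASXL1 ChIP with 10RA minus 1-590 was -1 rather than 0, through a peak near Mcm6 with 1-590. For the 67 other replication genes 42 values stayed, 4 moved and 2 reversed. The reversed values are both of 36EQ minus 1-1067, which was -5 as reported, 3 with q of at most 0.05 (8 against 5 genes) and 1 with -log10 p of at least 5 (8 against 7). The cause was not tested. Promoter peaks of members rest on 6 to 57 fragments in the 1-590 set and 12 to 19 in the 1-1067 set, which sets the width of the intervals.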
